A study of Mus musculus with 12 samples.

Results

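Transcripts of the neuropilins Nrp1 and Nrp2, the plexins Plxna1, Plxnb2, Plxnc1 and Plxnd1 and the semaphorins Sema4a, Sema4b and Sema4d were described in mouse bone marrow neutrophils with and without a Runx1 knockout. These 9 genes were taken by symbol from the 37310 genes of the count table. They were chosen by the measured genotype difference of Nrp1 in these same libraries, which was about 16-fold or more lower in Runx1 knockout cells, and as its relatives, so the genotype values of all 9 genes are given as a description: no p-value of theirs is printed for that contrast, and the counts of calls made in it support nothing. Responses to lipopolysaccharide (LPS) did not enter that choice and were tested.

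Semaphorins are secreted or membrane-bound guidance proteins first described in growing axons. Plexins are their transmembrane receptors, whose intracellular GTPase-activating domain acts on small GTPases and so on the cytoskeleton and on integrin adhesion, which leukocytes use when they migrate. Neuropilins are co-receptors with a short intracellular part that bind class 3 semaphorins together with plexins and also bind vascular endothelial growth factor (VEGF), and class 4 semaphorins are membrane-bound forms that immune cells carry and can shed.

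The libraries formed 4 groups of 3, all from C57BL/6 mice: Runx1KO cells with vehicle, Control cells with vehicle, Runx1KO cells with LPS and Control cells with LPS. LPS, a bacterial cell wall component sensed by Toll-like receptors, was given at 100 ng/mL for 2 h to neutrophils sorted as CD11b+, Ly6G+, Siglec F- and F4/80-. Runx1 encodes a transcription factor needed for blood cell formation, and the question of the series is how its loss alters cytokine production by neutrophils after Toll-like receptor signalling. The sources used here do not give how, in which cells or by which Cre Runx1 was deleted in Runx1KO, nor the age of the mice. For Control, the design text names LKS- cells (a progenitor fraction) pooled from the marrow of 1 Runx1f/f mouse and 1 Runx1f/- mouse, the second with a germline deletion of a single Runx1 allele, whereas the label of every Control library names sorted neutrophils. The labels do not settle which holds, and it bears on every genotype comparison. Levels of neutrophil and progenitor markers in Control and Runx1KO are given next, and the make-up of the cells was not tested.

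Total counts were 19023610 to 26225169 per library, and levels are given as CPM, counts per gene divided by a TMM-scaled library size and brought to a common total. Runx1 itself, for which reads from outside the deleted part check nothing, ranged from 60.5 to 75.4 CPM in Runx1KO and 36.8 to 56.2 CPM in Control with vehicle, and from 43.7 to 68.6 CPM in Runx1KO and 26.1 to 50.9 CPM in Control with LPS. All 13 neutrophil markers checked, among them Ly6g, S100a8 and Csf3r, were counted in every group, and their summed level was 135972 to 176602 CPM in Runx1KO and 180741 to 196365 CPM in Control with vehicle, and 189736 to 212785 CPM in Runx1KO and 185898 to 218044 CPM in Control with LPS. The summed level of 10 progenitor markers was 20.9 to 31.0 CPM in Runx1KO and 23.1 to 29.0 CPM in Control with vehicle, and 24.2 to 61.0 CPM in Runx1KO and 23.8 to 29.7 CPM in Control with LPS. The library numbered 2 of each group carried 109 to 192 CPM of the Y-linked Ddx3y and no Xist reads, and those numbered 1 and 3 carried Xist and close to no Ddx3y, so the number 2 shared no mouse with the others. The labels do not say whether libraries 1 and 3 of a group are of different mice, so the p-values cover the spread among libraries, part of which may be technical. In bulk RNA, fewer cells of a type and less RNA per cell cannot be told apart.

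The 250 bases before the gene start of Nrp1, Sema4f and Sema4d are shown because Runx1 binds DNA. Sema4f, described below, is another semaphorin gene with far fewer reads in Runx1KO. Sema4d is, of the 9 genes, 1 whose level differed little between genotypes. These genes run from far lower in Runx1KO to little different, and no gene higher in Runx1KO is shown. Each window is from RefSeq on GRCm38.p6, 5′ to 3′ on the strand of the gene. Capitals mark letters of a core RUNX motif, searched as TGTGGT or TGCGGT and, on the other strand, ACCACA or ACCGCA. Nrp1 is chr8:128358823-128359072 on the plus strand, Sema4f is chr6:82939770-82940019 on the minus strand and Sema4d is chr13:51748811-51749060 on the minus strand.
Nrp1: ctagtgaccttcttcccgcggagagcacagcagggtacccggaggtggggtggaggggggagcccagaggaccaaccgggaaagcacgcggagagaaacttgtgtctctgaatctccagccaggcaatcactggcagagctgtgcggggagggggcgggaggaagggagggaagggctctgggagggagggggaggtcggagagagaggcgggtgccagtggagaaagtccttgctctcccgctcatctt
Sema4f: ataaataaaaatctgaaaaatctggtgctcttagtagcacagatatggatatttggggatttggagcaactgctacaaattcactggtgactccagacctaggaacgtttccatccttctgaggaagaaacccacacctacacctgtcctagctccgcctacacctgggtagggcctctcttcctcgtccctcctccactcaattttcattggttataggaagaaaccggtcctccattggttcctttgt
Sema4d: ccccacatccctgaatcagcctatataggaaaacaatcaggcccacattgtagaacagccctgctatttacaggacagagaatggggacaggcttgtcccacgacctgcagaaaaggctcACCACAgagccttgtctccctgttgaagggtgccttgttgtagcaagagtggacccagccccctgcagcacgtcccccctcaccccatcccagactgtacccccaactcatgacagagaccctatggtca
Neither the Nrp1 nor the Sema4f window held a motif, and the Sema4d window shown held ACCACA, starting 130 bases before that gene start. Sema4d has further RefSeq gene starts, and their windows, at chr13:51756684-51756933 and chr13:51739447-51739696, held none. Sema7a and Cd72, described below, also had far fewer reads in Runx1KO. The Sema7a window held ACCGCA, starting 130 bases before its gene start, and the Cd72 window held none. Of the 9 genes, 8 were matched to at least 1 RefSeq gene start. The Sema4a window at chr3:88459102-88459351 held TGCGGT, starting 35 bases before that gene start, and the further Sema4a windows held none. The windows of Nrp2, Plxnb2, Plxnc1, Plxnd1 and Sema4b held none. Of 32851 such windows over all genes, 14.0% held TGTGGT or ACCACA, 5.10% held TGCGGT or ACCGCA and 18.6% held either. A match is a description of letters, and its absence says only that these letters are not in this window. No binding data were used.

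Nrp1 (ENSMUSG00000025810.8, chromosome 8), the neuropilin that binds class 3 semaphorins and VEGF, was at 1.30, 0.975 and 1.96 CPM in Runx1KO libraries 1, 2 and 3 and at 28.1, 14.3 and 26.9 CPM in Control libraries 1, 2 and 3 with vehicle. With LPS it was at 1.37, 0.719 and 0.787 CPM in Runx1KO and at 30.4, 11.3 and 31.1 CPM in Control. Every Runx1KO library lay below every Control library, and the highest Runx1KO value was still under the lowest Control value by several fold. Set against Control, Runx1KO had a log2 fold change of −4.02 (SE 0.49), a 16.2-fold lower level, with vehicle and −4.65 (SE 0.51), 25.1-fold lower, with LPS. Between libraries of the same number the log2 difference was −4.35, −3.76 and −3.72 with vehicle and −4.39, −3.82 and −5.16 with LPS. The reads behind these values were 110 over the 3 Runx1KO libraries and 1663 over the 3 Control libraries with vehicle, and 62 in Runx1KO and 1491 in Control with LPS. Within Control, the libraries numbered 2, the ones with Ddx3y reads, had the lowest Nrp1 in both treatments, and the part of this feature in the Nrp1 level was not tested. In the reference annotation 80 of the 9785 exonic bases of Nrp1 are shared with the microRNA gene Mir1903.

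**Figure D1:**
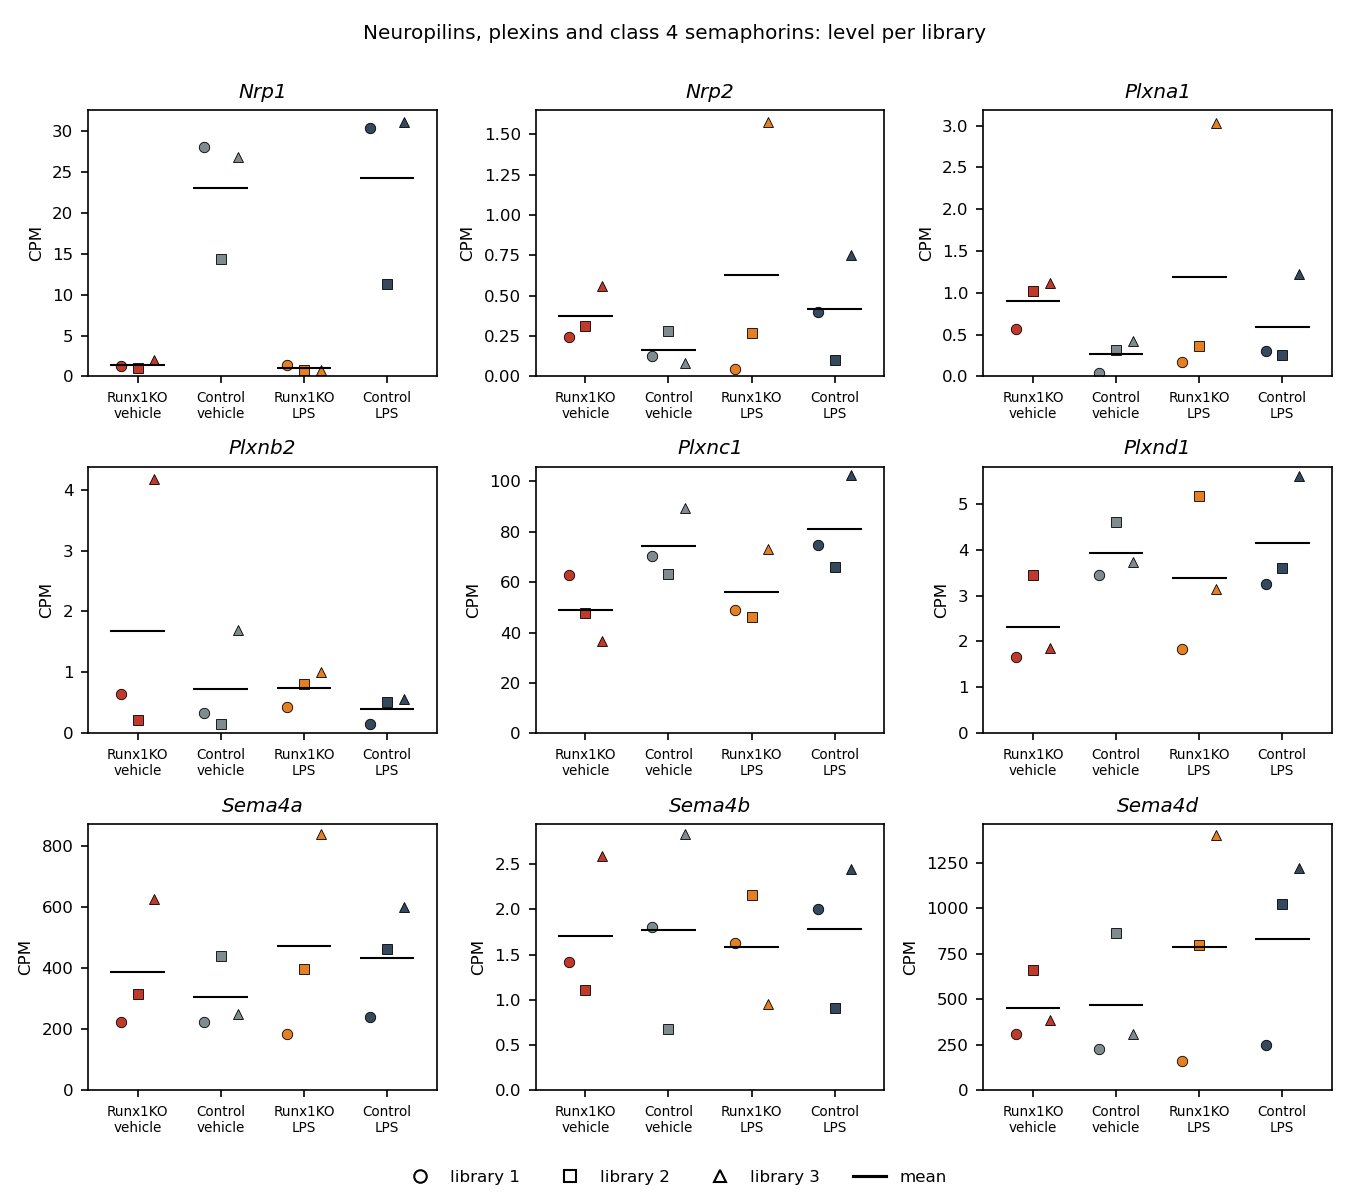
Level in CPM on TMM-scaled sizes of each of the 9 genes in each of the 12 libraries, with 1 panel per gene, each with its own axis, 1 point per library and a bar at the group mean. In the Nrp1 panel the 6 Runx1KO libraries lie between 0.719 and 1.96 CPM and the 6 Control libraries between 11.3 and 31.1 CPM, while in the Sema4a and Sema4d panels the groups overlap.

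Nrp2, the paralog of Nrp1 with a similar co-receptor role, had few reads in all groups. It was at 0.243, 0.310 and 0.561 CPM in Runx1KO and 0.126, 0.280 and 0.0846 CPM in Control with vehicle, and at 0.0428, 0.270 and 1.57 CPM in Runx1KO and 0.401, 0.101 and 0.753 CPM in Control with LPS. The groups overlapped in both treatments. The genotypes differed by a log2 fold change of 1.16 (SE 1.07) with vehicle and 0.55 (SE 1.01) with LPS. Without Runx1KO LPS 3 the value with LPS turned to −1.41, and without Control vehicle 2 the value with vehicle was 1.77.

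Among the plexins, Plxnc1, the receptor of Sema7a, had the highest level. It was at 63.1, 47.8 and 36.7 CPM in Runx1KO and 70.3, 63.4 and 89.5 CPM in Control with vehicle, and at 49.1, 46.1 and 73.2 CPM in Runx1KO and 74.8, 66.2 and 102 CPM in Control with LPS. The Runx1KO libraries lay just below the Control libraries with vehicle and overlapped with them with LPS, and Plxnc1 was lower in Runx1KO in each of the 6 pairs of the same number. The log2 fold change with vehicle was −0.60 (SE 0.29), and with LPS it was −0.53 (SE 0.29).

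Plxnd1, a plexin that binds class 3 semaphorins and Sema4a, was at 1.66, 3.46 and 1.86 CPM in Runx1KO and 3.44, 4.59 and 3.72 CPM in Control with vehicle. With LPS it was at 1.84, 5.17 and 3.15 CPM in Runx1KO and 3.26, 3.59 and 5.60 CPM in Control. The groups overlapped in both treatments, and the log2 fold change with vehicle was −0.76 (SE 0.43), and with LPS it was −0.29 (SE 0.43).

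Plxnb2, a receptor of class 4 semaphorins, was at 0.648, 0.222 and 4.17 CPM in Runx1KO and 0.336, 0.160 and 1.69 CPM in Control with vehicle, and at 0.428, 0.809 and 1.01 CPM in Runx1KO and 0.150, 0.506 and 0.565 CPM in Control with LPS. The vehicle libraries numbered 3 stood apart in both genotypes, and the groups overlapped. Its log2 fold change was 1.21 (SE 1.02) with vehicle, against 0.86 (SE 1.08) with LPS. The vehicle value turned to −0.73 without Runx1KO vehicle 3 and was 2.75 without Control vehicle 3.

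Plxna1, which pairs with neuropilins as a receptor of class 3 semaphorins, was at 0.567, 1.02 and 1.12 CPM in Runx1KO and 0.0420, 0.320 and 0.423 CPM in Control with vehicle. With LPS it was at 0.171, 0.359 and 3.04 CPM in Runx1KO and 0.301, 0.253 and 1.22 CPM in Control. The genotypes did not overlap with vehicle, where Runx1KO was higher, and overlapped with LPS, at log2 fold changes of 1.77 (SE 1.06) with vehicle and 0.97 (SE 1.02) with LPS. Without Runx1KO LPS 3 the value with LPS turned to −1.16. Of its 9054 exonic bases 970 are shared with the antisense gene Gm26811. Since the sources used here do not give the strand setting of the counting, reads in that shared part cannot be assigned to either gene.

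Sema4d, also known as CD100, a semaphorin of T cells and myeloid cells that binds plexins of the B class and Cd72, had the highest level of the semaphorins together with Sema4a. It was at 309.7, 660.2 and 385 CPM in Runx1KO and 227, 861 and 310.2 CPM in Control with vehicle, and at 160.4, 799 and 1399.6 CPM in Runx1KO and 247, 1021 and 1218 CPM in Control with LPS. The groups overlapped widely, and in both genotypes library 2 was the highest with vehicle and library 3 the highest with LPS. Its log2 fold change with vehicle was −0.04 (SE 0.76), and with LPS it was −0.08 (SE 0.76).

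Sema4a, a semaphorin of antigen-presenting and other immune cells, was at 225, 316 and 626 CPM in Runx1KO and 223, 441 and 249 CPM in Control with vehicle. With LPS it was at 185, 398 and 840 CPM in Runx1KO and 239, 462 and 601 CPM in Control. These groups overlapped too, at log2 fold changes of 0.35 (SE 0.56) with vehicle and 0.13 (SE 0.56) with LPS.

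Sema4b, a related class 4 semaphorin, was at 1.42, 1.11 and 2.59 CPM in Runx1KO and 1.81, 0.679 and 2.83 CPM in Control with vehicle, and at 1.63, 2.16 and 0.956 CPM in Runx1KO and 2.00, 0.911 and 2.45 CPM in Control with LPS. The groups overlapped, and the log2 fold change with vehicle was −0.05 (SE 0.57), and with LPS it was −0.17 (SE 0.58).

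When a library, or all libraries of a number, was left out, the genotype values of the semaphorins took both signs. With vehicle and with LPS they lay between −0.42 and 0.75 and between −0.79 and 0.41 for Sema4d, between −0.25 and 0.85 and between −0.58 and 0.51 for Sema4a, and between −0.49 and 0.46 and between −0.78 and 0.39 for Sema4b. For Plxnd1 the value with LPS lay between −0.83 and 0.050.

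All 9 genes passed the filter on low counts, and 12917 genes were tested in all. With vehicle, 1 of the 9 (Nrp1) was called lower in Runx1KO and 0 were called higher, at an adjusted p under 0.05 in edgeR's quasi-likelihood test, and over all genes tested 0.604% were called lower and 0.348% higher. With LPS the count was again 1 lower (Nrp1) and 0 higher, with 0.573% of all genes called lower and 0.348% higher. At an unadjusted p under 0.05, 1006 genes passed with vehicle and 1311 with LPS. The genotypes did not overlap for 3 of the 9 with vehicle (Nrp1 and Plxnc1 lower, Plxna1 higher), against 13.2% of all genes, and for 1 of the 9 with LPS (Nrp1), against 13.3%. The median log2 fold change of the 9 was −0.04 with vehicle, where that of all genes was 0.0025, and −0.08 with LPS, where it was 0.031. Since the genotype contrast chose these genes, nothing is read from the counts. The comparisons with vehicle and with LPS use separate libraries but a shared estimate of the spread. Same-numbered libraries had the same pattern of Ddx3y and Xist reads in all groups. Between treatments their deviations correlated at 0.394 to 0.667 in Control and 0.00575 to 0.537 in Runx1KO. These comparisons are therefore not taken as independent.

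**Figure D2:**
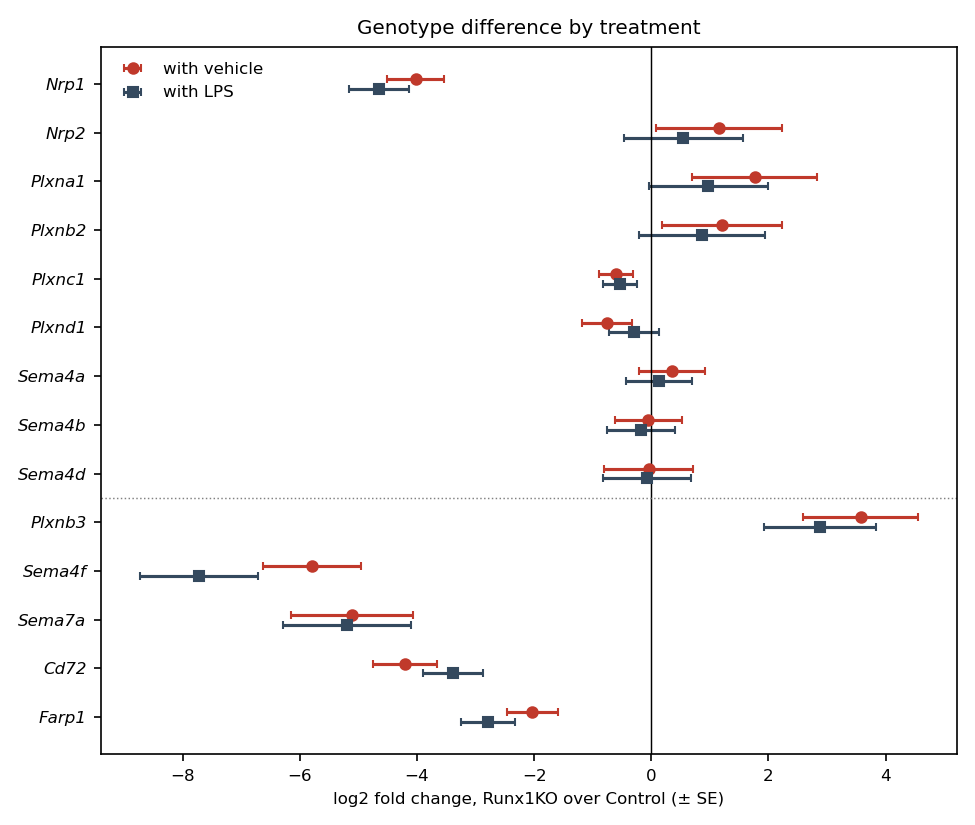
Log2 fold change of Runx1KO against Control with vehicle and with LPS, with bars of 1 SE on either side from the edgeR fit over all 12 libraries, for the 9 genes and, under the dotted line, 5 other pathway genes. Nrp1 lies at −4.02 and −4.65 and the other 8 of the 9 between −0.76 and 1.77; the points of Sema4f with LPS and of Sema7a rest on 2 or 3 Runx1KO reads and depend on the prior count.

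Levels of different genes were also set side by side per length, as CPM per kilobase of exon union. In Control with vehicle the order from the highest was Sema4d at 60.7 ± 44.8, Sema4a at 56.3 ± 22.0, Plxnc1 at 8.91 ± 1.62 and Nrp1 at 2.36 ± 0.78 (SD, n = 3). Below these lay Plxnd1 at 0.537 ± 0.082, Sema4b at 0.314 ± 0.191, Plxnb2 at 0.0945 ± 0.109, Plxna1 at 0.0289 ± 0.0218 and Nrp2 at 0.0138 ± 0.00868. Sema4d and Sema4a did not differ beyond their spread, nor did neighbours from Plxnb2 down to Nrp2, whereas Nrp1 stood below Plxnc1 and above Plxnd1 by more than the spread. Sema4b stood above Plxnb2 by more than either SD, but their libraries overlapped, at 0.120 to 0.502 and 0.0207 to 0.219.

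In Runx1KO with vehicle the order per kilobase was Sema4a at 72.0 ± 38.8, Sema4d at 58.8 ± 24.0, Plxnc1 at 5.89 ± 1.59, Plxnd1 at 0.318 ± 0.135, Sema4b at 0.302 ± 0.139, Plxnb2 at 0.218 ± 0.281, Nrp1 at 0.144 ± 0.051, Plxna1 at 0.0997 ± 0.0326 and Nrp2 at 0.0314 ± 0.0141. Nrp1 was thus below Plxnd1, Sema4b and Plxnb2 here and above them in Control. In Runx1KO Plxna1 lay within its spread, and Nrp1 lay within the spread of Plxnb2. With LPS the order kept Sema4d, Sema4a and Plxnc1 at the top, at 102, 87.8 and 6.72 CPM per kilobase in Runx1KO and at 108, 80.3 and 9.72 in Control. Nrp1 was at 0.0980 ± 0.0366 in Runx1KO, beside Plxnb2 at 0.0971 ± 0.0384, and at 2.48 ± 1.15 in Control, above Plxnd1 at 0.568 ± 0.174.

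The response to LPS was tested next. In Runx1KO neutrophils 0 of the 9 genes passed edgeR's quasi-likelihood test, as did 0% of all genes tested, with 676 genes at an unadjusted p under 0.05, 0 genes called by limma-voom and 1 by DESeq2. In Control 0 of the 9 passed, again with 0% of all genes, 78 genes at an unadjusted p under 0.05 and 0 genes called by limma-voom or DESeq2. LPS and vehicle libraries overlapped for all 9 genes in both genotypes, while they did not overlap for 6.71% of all genes in Runx1KO and 5.16% in Control. The median log2 fold change of the 9 was 0.29 in Runx1KO, where that of all genes was 0.028, and 0.13 in Control, where it was −0.020.

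Nrp1 had a log2 fold change with LPS of −0.55 (SE 0.47, edgeR adjusted p = 0.892) in Runx1KO and 0.07 (SE 0.42, edgeR adjusted p = 1) in Control, and the difference of these responses was −0.63 (SE 0.63, edgeR adjusted p = 1.00). For Sema4d the log2 fold change was 0.80 (SE 0.76) in Runx1KO and 0.83 (SE 0.76) in Control, and for Sema4a it was 0.29 (SE 0.56) in Runx1KO and 0.51 (SE 0.56) in Control. The edgeR adjusted p of the 9 genes was 0.883 to 0.996 in Runx1KO and 1 in Control. Plxnc1 had a log2 fold change of 0.19 (SE 0.29) in Runx1KO and 0.13 (SE 0.29) in Control. Over the 9 genes the response ranged from −1.17 (Plxnb2) to 0.80 (Sema4d) in Runx1KO and from −0.83 (Plxnb2) to 1.33 (Nrp2) in Control. The difference of the responses ranged from −0.79 (Plxna1) to 0.46 (Plxnd1), and 0 of the 9 passed, with 0% of all genes and 77 genes at an unadjusted p under 0.05.

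The difference between LPS and vehicle was unequal over the library numbers. From vehicle to LPS, Sema4d differed by −0.95, 0.27 and 1.86 on the log2 scale between Runx1KO libraries of the numbers 1, 2 and 3, and by 0.12, 0.25 and 1.97 between Control libraries. Tnf, the cytokine gene that LPS induces through NF-kB, differed by −1.54, 1.27 and 6.92 in Runx1KO and by 0.57, 1.09 and 6.09 in Control. Its level was 73.0 to 1419 CPM in Runx1KO and 28.2 to 1281 CPM in Control with vehicle. With LPS it was 488 to 8859 CPM in Runx1KO and 1264 to 1927 CPM in Control. The vehicle libraries thus differed widely in Tnf without LPS. In both genotypes the libraries numbered 3 gave the largest value for Tnf and for Sema4d. Sema4a differed by −0.29, 0.33 and 0.42 in Runx1KO and by 0.10, 0.07 and 1.27 in Control, and Nrp1 by 0.08, −0.40 and −1.23 in Runx1KO and by 0.11, −0.34 and 0.21 in Control. Nrp1 in Control thus differed little at every number, including number 3. The part of the unequal Tnf levels in these values was not tested.

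**Figure D3:**
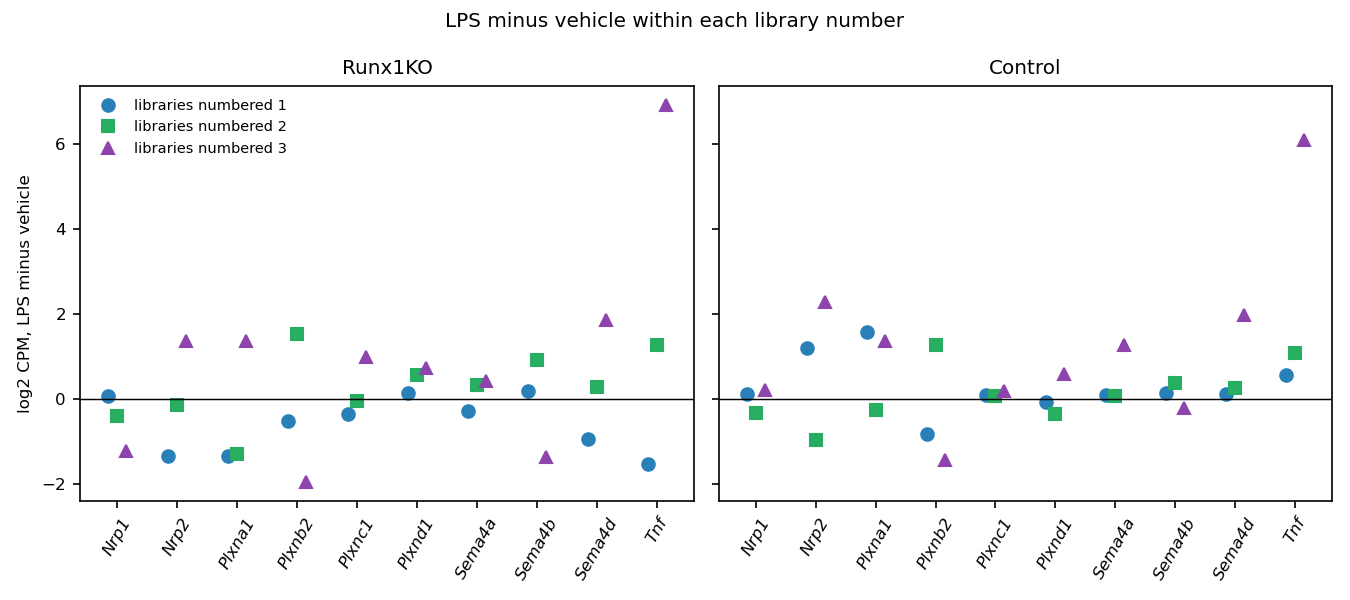
Log2 difference in CPM, LPS minus vehicle, between libraries of the same number for the 9 genes and for Tnf, in Runx1KO and in Control. Libraries numbered 3 give 1.86 and 1.97 for Sema4d and 6.92 and 6.09 for Tnf, and Nrp1 in Control lies between −0.34 and 0.21.

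The rest of the pathway was taken from 5 lists of semaphorins, plexins and neuropilins, other receptors of semaphorins, VEGF ligands and receptors, and intracellular signalling genes. They hold 80 genes with the 9, of which 8 had no read in any library and 47 were tested. Of the 38 tested genes other than the 9, 3 fell in Runx1KO with vehicle (Sema4f, Sema7a and Cd72) and 3 with LPS (Sema4f, Cd72 and Farp1). In each treatment 0 rose and 35 did not pass. Over all genes tested, 0.604% were called lower and 0.348% higher with vehicle, and 0.573% and 0.348% with LPS. The lists were chosen with earlier results of these data known, so these calls and the genotype p-values of their genes are a description. The same holds for the fits below that leave out libraries or change a setting, and none of these is support. Sema4f, Sema7a and Cd72 had nearly all their reads in Control and passed the filter on low counts through the Control libraries. Plxna4, with reads in Runx1KO alone, did not pass it. The median log2 fold change of the 47 was −0.02 with vehicle and 0.16 with LPS. By list, 2 of 7 semaphorins tested fell with vehicle and 1 of 7 with LPS, 1 of 4 other receptors fell in each treatment, and 0 of 4 VEGF genes passed. Of 25 intracellular genes 0 passed with vehicle and 1 fell with LPS. In the responses to LPS and in their difference 0 of the 38 passed, with 0% of all genes tested.

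Sema4f, a transmembrane semaphorin known mainly from the nervous system, fell most. It was at 0.202, 0.266 and 0 CPM in Runx1KO and 10.9, 7.87 and 7.19 CPM in Control with vehicle, and at 0, 0 and 0.112 CPM in Runx1KO and 11.3, 4.25 and 8.33 CPM in Control with LPS. No Runx1KO library came near a Control library. The log2 fold change with vehicle was −5.80 (SE 0.84, 55.6-fold lower, edgeR adjusted p = 0.00625). With LPS 2 reads in Runx1KO stood against 487 in Control, a ratio of 253-fold lower with a 95% counting interval of 69.7 to 2097 (edgeR adjusted p = 0.00518). As a description, Sema4f was called when any single library was left out, in both treatments. When all 4 libraries of a number were left out, the call with vehicle was lost each time (edgeR adjusted p = 0.162, 0.164 and 0.0783 without numbers 1, 2 and 3), and that with LPS without number 1 (0.134) and without number 2 (0.171).

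Sema7a, a membrane-anchored semaphorin that binds Plxnc1 and integrins, had 3 reads in Runx1KO and 109 in Control with vehicle. The ratio was 38.0-fold lower with a 95% counting interval of 12.7 to 187 (edgeR adjusted p = 0.0413), and the call held in 2 of the 12 fits that left out a single library, with adjusted p values from 0.0330 to 0.176. The call was also lost with library size alone for scaling (edgeR adjusted p = 0.0543). Without all libraries of numbers 1, 2 and 3 it was lost each time (edgeR adjusted p = 0.411, 0.436 and 0.142). By library Sema7a was at 0, 0 and 0.105 CPM in Runx1KO and 2.39, 1.28 and 0.846 CPM in Control. With LPS it had 2 reads in Runx1KO and 85 in Control (44.2-fold lower, interval 11.9 to 371), which did not pass (edgeR adjusted p = 0.0503) and did pass with the replicate number as a block (adjusted p = 0.0316). It also passed with library size alone (edgeR adjusted p = 0.0499), without a filter (edgeR adjusted p = 0.0188), in DESeq2 (adjusted p = 0.000596) and in limma-voom (adjusted p = 0.0336). With DESeq2 size factors or at least 10 counts in 3 libraries it did not pass. The levels did not overlap in either treatment.

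Cd72, a receptor of Sema4d best known from B cells, was at 0.283, 0.222 and 0.210 CPM in Runx1KO and 5.46, 2.88 and 5.16 CPM in Control with vehicle. With LPS it was at 0.385, 0.898 and 0.337 CPM in Runx1KO and 6.01, 3.04 and 8.24 CPM in Control. It did not overlap between genotypes, at log2 fold changes of −4.21 (SE 0.54, edgeR adjusted p = 0.00466) and −3.39 (SE 0.51, edgeR adjusted p = 0.00904). Its calls held without any single library, and were lost without all 4 libraries of any number, at edgeR adjusted p values of 0.0529 to 0.157 with vehicle and 0.0518 to 0.255 with LPS. In the reference annotation 1423 of its 3422 exonic bases lie over exons of Tesk1 on the other strand, which makes its count uncertain. Tesk1 averaged 0.809 ± 0.277 CPM in Runx1KO and 0.916 ± 0.255 CPM in Control with vehicle (SD, n = 3).

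Farp1, a guanine nucleotide exchange factor that binds plexins of the A class, was at 0.688, 0.887 and 0.771 CPM in Runx1KO and 3.65, 2.24 and 3.76 CPM in Control with vehicle, and at 0.214, 0.809 and 0.506 CPM in Runx1KO and 3.41, 3.44 and 3.81 CPM in Control with LPS. The genotypes did not overlap. With LPS it fell by 2.79 on the log2 scale (SE 0.46, edgeR adjusted p = 0.0129), a call lost without Runx1KO LPS 3 (adjusted p = 0.0612) or without Control LPS 3 (adjusted p = 0.0553), and without all libraries of any number (adjusted p = 0.153 to 0.298). With vehicle the log2 fold change was −2.03 (SE 0.44, edgeR adjusted p = 0.0548), and it passed with the replicate block (adjusted p = 0.0334), in limma-voom (adjusted p = 0.0485) and in DESeq2 (adjusted p = 0.000340).

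**Figure D4:**
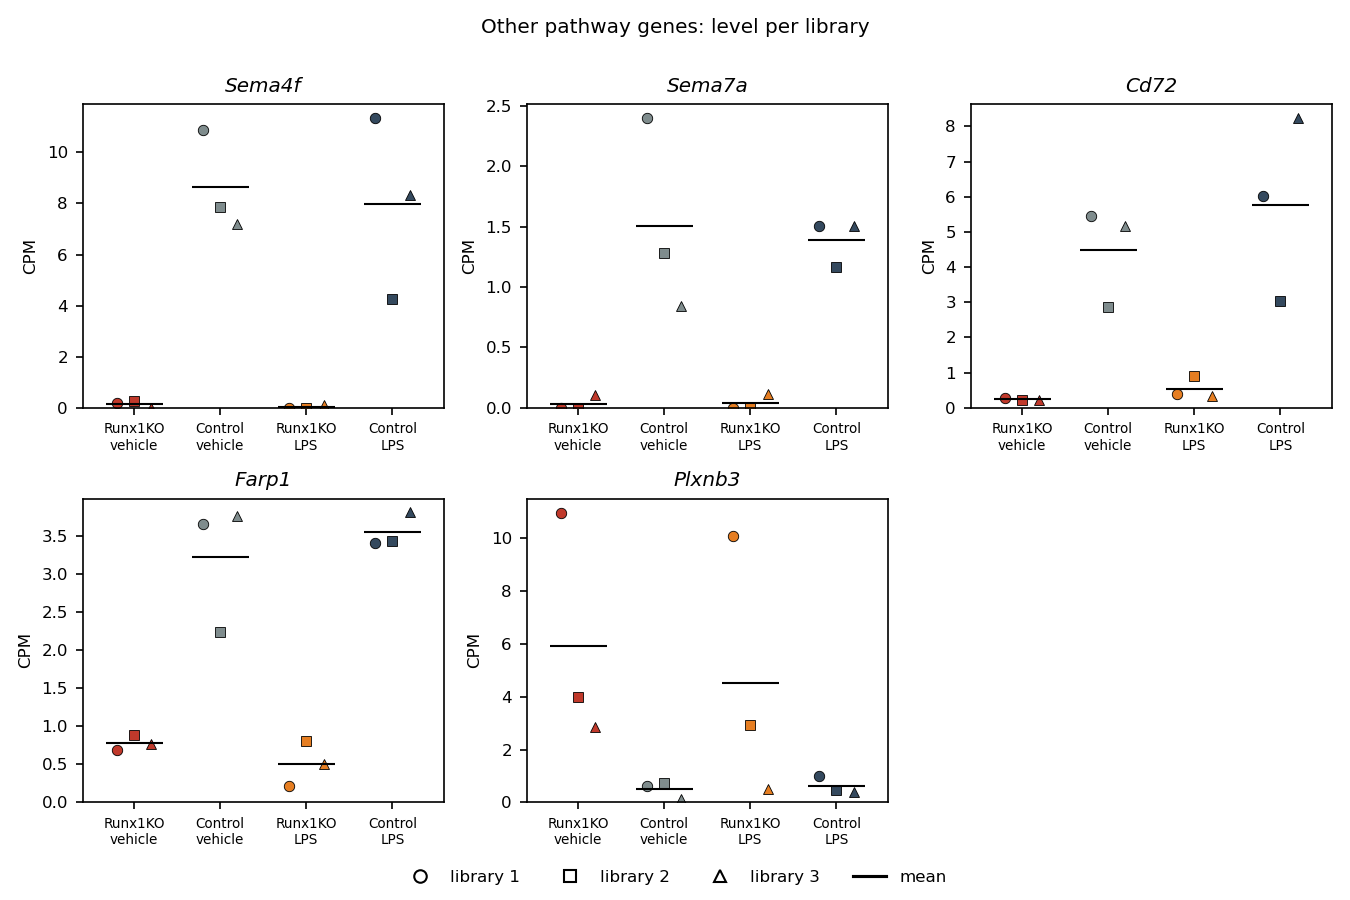
Level in CPM on TMM-scaled sizes of Sema4f, Sema7a, Cd72, Farp1 and Plxnb3 in each of the 12 libraries, with 1 panel per gene, each with its own axis, 1 point per library, a point shape per library number and a bar at the group mean. Sema4f lies between 0 and 0.266 CPM in the 6 Runx1KO libraries and between 4.25 and 11.3 CPM in the 6 Control libraries, and Plxnb3 is highest in the Runx1KO libraries numbered 1, at 11.0 and 10.1 CPM.

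Plxnb3, a receptor of class 5 semaphorins, was chosen after its values were seen. It was at 11.0, 3.99 and 2.84 CPM in Runx1KO and 0.630, 0.719 and 0.127 CPM in Control with vehicle, and at 10.1, 2.92 and 0.506 CPM in Runx1KO and 1.00, 0.455 and 0.377 CPM in Control with LPS. The genotypes did not overlap with vehicle and did with LPS. It did not pass edgeR's test with vehicle (log2 fold change 3.57, SE 0.98, adjusted p = 0.154) or with LPS (2.88, SE 0.96, edgeR adjusted p = 0.280). With vehicle it passed with the replicate block (adjusted p = 0.0125) and in DESeq2 (adjusted p = 0.00342), and with LPS in DESeq2 (adjusted p = 0.0443).

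Of the VEGF genes, whose products share neuropilins as co-receptors, Vegfa had a log2 fold change of −0.89 (SE 0.44, edgeR adjusted p = 0.716) with vehicle and −0.47 (SE 0.44, edgeR adjusted p = 0.833) with LPS. Kdr, the VEGF receptor that signals together with Nrp1 in endothelium, was at 0.567 to 1.09 CPM in Runx1KO and 0.0420 to 0.280 CPM in Control with vehicle. It did not pass (log2 fold change 2.74, SE 0.82, edgeR adjusted p = 0.208, and 1.84, SE 0.81, edgeR adjusted p = 0.466 with LPS), although the genotypes did not overlap in either treatment.

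Over the 12 libraries the genes most like Nrp1, by Pearson's r of log2 CPM among 7059 genes, were Cd63-ps (r = 0.982), Cd63 (0.982), Trpm2 (0.981), Entpd5 (0.980) and Cdyl2 (0.980). Cd63 encodes a granule membrane protein and Cd63-ps is named as its pseudogene, and how reads that match both were counted is not known, so both are uncertain. Trpm2, a calcium-permeable channel, was at 62.5 to 96.1 CPM in Runx1KO and 187 to 223 CPM in Control with vehicle. These values describe likeness only: the libraries fall into the 2 genotypes and share their depth and numbers. By Spearman's rho, 2 of the 5 genes stayed among the first 5.

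Summed levels of the markers of some other cells differed between genotypes, and those of others overlapped. Beside the counts of called markers given here, over all genes tested 0.604% were called lower and 0.348% higher with vehicle. With LPS 0.573% were called lower and 0.348% higher. The summed level of 8 T and NK cell markers was 3.20 to 4.08 CPM in Runx1KO and 32.6 to 49.0 CPM in Control with vehicle, and 2.44 to 3.99 CPM in Runx1KO and 36.2 to 49.0 CPM in Control with LPS, and of 3 tested, Cd3d fell in both treatments. The 10 B lineage markers summed to 10.5 to 15.2 CPM in Runx1KO and 21.9 to 45.5 CPM in Control with vehicle, with Ms4a1 at 0 in Runx1KO, and to 14.0 to 22.4 CPM in Runx1KO and 25.1 to 63.9 CPM in Control with LPS, and 2 of 9 tested fell with vehicle and 1 of 9 with LPS. The 7 basophil and mast cell markers summed to 1.20 to 1.98 CPM in Runx1KO, with Mcpt8, Prss34, Fcer1a and Cd200r3 at 0, and to 5.99 to 25.9 CPM in Control with vehicle. They summed to 1.26 to 2.92 CPM in Runx1KO, with Mcpt8, Prss34 and Fcer1a at 0, and to 3.74 to 26.03 CPM in Control with LPS, and 2 of 6 tested fell with vehicle and 1 of 6 with LPS.

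Monocyte and macrophage markers (10 genes) summed to 758 to 1426 CPM in Runx1KO and 1351 to 1746 CPM in Control with vehicle, and to 972 to 3134 CPM in Runx1KO and 1620 to 2010 CPM in Control with LPS, and 0 of 6 tested passed. Dendritic cell markers (8 genes), a class of cells known for Nrp1 in its plasmacytoid form, summed to 14.2 to 22.8 CPM in Runx1KO and 13.9 to 36.5 CPM in Control with vehicle, and to 13.3 to 29.2 CPM in Runx1KO and 12.8 to 39.0 CPM in Control with LPS, with 0 of 6 passing. Megakaryocyte and platelet markers (10 genes) summed to 48.8 to 55.5 CPM in Runx1KO and 28.5 to 35.3 CPM in Control with vehicle, and to 43.5 to 58.0 CPM in Runx1KO and 30.9 to 36.1 CPM in Control with LPS, and 4 of 9 tested rose with vehicle and 2 of 9 with LPS. Endothelial and stromal markers (10 genes) summed to 7.09 to 9.15 CPM in Runx1KO and 4.67 to 7.57 CPM in Control, with Emcn and Tek at 0 there, with vehicle, and to 7.50 to 10.4 CPM in Runx1KO and 6.02 to 11.3 CPM in Control with LPS. Of these, 1 of 6 tested rose with vehicle. Eosinophil markers (7 genes) summed to 8.78 to 28.6 CPM in Runx1KO and 10.7 to 35.3 CPM in Control with vehicle, and to 9.03 to 14.1 CPM in Runx1KO and 10.6 to 31.9 CPM in Control with LPS, and 1 of 6 tested fell with vehicle. Erythroid markers (9 genes) summed to 70.8 to 831 CPM in Runx1KO and 102 to 358 CPM in Control with vehicle, and to 131 to 952 CPM in Runx1KO and 124 to 386 CPM in Control with LPS, with 0 of 9 passing. The part of these cells in the levels of Nrp1, Sema4f, Sema7a, Cd72 and Plxnb3 was not tested.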

How the data were processed

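Whole-number read counts per gene in 12 libraries were used as deposited, unnormalized. Per the submitters' processing notes, the tools were STAR 2.6.0a and featureCounts and the build was mm9. The sources used here give no annotation release, strand setting or read filter. The authors added ERCC spike-in RNA and used an ultra-low input kit, per the labels' protocols. Columns were matched to samples by title.

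Genes were filtered with filterByExpr (12917 kept), scaled by TMM and tested with edgeR 4.0.16 (quasi-likelihood, R 4.3.3) in 1 model of the 4 groups, with Benjamini-Hochberg adjustment over all genes tested and a threshold of 0.05. The SE is the log2 fold change divided by the square root of F. Log2 CPM used a prior count of 2. With 1 to 3 reads in a group, the ratio has a 95% counting interval, and against 0 reads a floor of 3 reads over the group. Reads carry no molecular identifiers, so intervals and floors cover counting error only. The code was tested on simulated data.

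The genes, lists, markers and tests were chosen with earlier results of these data known. The text names the 9 genes, up to 4 called pathway genes per direction and comparison, the 5 genes most like Nrp1 among those whose log2 CPM averaged 2 or more, and Runx1. Exon unions and overlaps are from GENCODE M21 and promoters from RefSeq, both on GRCm38, not the build of the counts.

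Replicates differed beyond sampling noise in every group. The replicate numbers pair the samples where same-numbered libraries deviate together: the correlation was 0.479, 0.374 and 0.461 for numbers 1, 2 and 3 between genotypes with vehicle, 0.565, 0.429 and 0.445 with LPS, and 0.667, 0.659 and 0.394 between treatments in Control, but 0.314, 0.537 and 0.00575 in Runx1KO. Alternatives were the replicate block, DESeq2 size factors, library size alone, no filter, at least 10 counts in 3 libraries, DESeq2 1.42.0, limma-voom 3.58.1 and leaving out libraries.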

Additional observations from a re-analysis of the deposited data

How the results depend on the processing

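As a description, the log2 fold change of Nrp1 in Runx1KO against Control was −4.34 to −3.75 with vehicle and −5.01 to −4.29 with LPS when libraries were left out. The number of the 9 genes called was 0 to 1 in each genotype comparison in those fits, and 0 arose in these fits only where all 4 libraries of a number were left out, which leaves fewer libraries. Over all genes, 1 to 171 were called with vehicle and 3 to 135 with LPS in those fits. Leaving out any library of the compared pair moved the count to 47 to 70 with vehicle, and with LPS to 49 to 66 for all but Runx1KO LPS 1. The fit with the replicate block called 315 genes with vehicle and 302 with LPS. Among the 9 genes, Sema4f, Sema7a, Cd72, Farp1 and Plxnb3, it changed the calls given with Farp1, Sema7a and Plxnb3 and no other. DESeq2 called 386 with vehicle, 401 with LPS and 1 for LPS against vehicle in Runx1KO. The cause of these differences was not tested.

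Directions of uncalled LPS responses turned as follows (log2 fold changes). With the replicate block, Plxna1 was −0.36 and Sema4b 0.097 in Runx1KO, and the difference of responses for Sema4b was 0.036. With library size alone, which moved the median of all genes to −0.28 in Runx1KO and −0.14 in Control, Plxna1 was −0.19, Plxnc1 −0.17 and Sema4a −0.21 in Runx1KO, Nrp1 −0.052, Plxnc1 −0.0082, Plxnd1 −0.036 and Sema4b −0.13 in Control, and the difference for Plxnc1 was −0.17. With limma-voom, Nrp2 was −0.41 and Plxna1 −0.68 in Runx1KO and Nrp1 −0.0029 in Control.

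When libraries were left out, these log2 fold changes crossed 0. LPS against vehicle in Runx1KO gave −1.24 to 1.27 for Nrp2, −1.75 to 0.91 for Plxna1, −1.75 to 0.76 for Plxnb2, −0.25 to 0.46 for Plxnc1, −0.42 to 0.81 for Sema4a, −0.63 to 0.56 for Sema4b and −0.034 to 1.28 for Sema4d. In Control it gave −0.18 to 0.41 for Nrp1, −1.48 to 0.71 for Plxnb2, −0.071 to 0.28 for Plxnc1, −0.23 to 0.31 for Plxnd1 and −0.37 to 0.52 for Sema4b. The difference of the responses was −2.57 to 0.085 for Nrp2, −2.93 to 0.26 for Plxna1, −1.89 to 1.59 for Plxnb2, −0.32 to 0.29 for Plxnc1, −0.031 to 0.86 for Plxnd1, −0.94 to 0.30 for Sema4a, −0.64 to 0.33 for Sema4b and −0.83 to 0.45 for Sema4d.

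Low counts limit Nrp2, Plxna1 and Plxnb2. With 3 libraries a group, permuting the labels of 1 gene could not reach the threshold.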

Other observations

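Sema6c, a transmembrane class 6 semaphorin, was chosen after its values were seen. It was at 0.385, 0.943 and 0.787 CPM in Runx1KO with LPS and 3.93, 1.77 and 6.69 CPM in Runx1KO with vehicle. These groups did not overlap, and it did not pass (log2 fold change −2.55, SE 0.75, edgeR adjusted p = 0.873). In Control it was at 0.451, 2.07 and 1.41 CPM with LPS and 0.420, 2.64 and 1.65 CPM with vehicle, and the difference of the responses did not pass (−2.29, SE 1.03, edgeR adjusted p = 1.00).

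Plxna4, a plexin that pairs with neuropilins, was also chosen after its values were seen, and did not pass the filter on low counts. It had 32 reads in the 3 Runx1KO libraries and 0 in the 3 Control libraries with vehicle, at least 10.2-fold higher against a floor of 3 reads over the group. With LPS it had 12 reads in Runx1KO and 0 in Control, at least 3.85-fold higher. Of its 14103 exonic bases 110 are shared with the antisense gene Plxna4os3, and only reads in that shared part could not be assigned.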
